A study of Mus musculus with 20 samples.

Results

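The lysosome is the acid compartment in which a macrophage breaks down what it has taken up. A proton pump in its membrane, the V-ATPase, acidifies the lumen, with a V1 sector that splits ATP and a V0 sector through which protons pass. Cathepsins and other hydrolases work at that low pH, and the MiT/TFE transcription factors switch on many of these genes together. The genes described here are 53 lysosomal genes of the 14456 genes in the deposited table, and all 53 were listed. They were chosen by name, with earlier results of these data known. They are 6 genes of the membrane and its coat, calcium release and shaping (Lamp1, Lamp2, Cln3, Mcoln1, Gpnmb and Lyst), the 3 factors Tfeb, Tfe3 and Mitf, 11 proteases, 2 acid phosphatases, 10 hydrolases of sugars and glycosaminoglycans, 5 lipid hydrolases or lipid binding proteins, 6 V0 subunits, 8 V1 subunits and 2 accessory proteins of the pump.

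RNA was measured in bone marrow-derived macrophages (BMDM), grown with M-CSF from the marrow of male C57BL/6 mice, with no transgene or deletion in any group. The mice were 8 weeks old by the culture protocol of the study, which elsewhere gives a range of ages that starts at 8 weeks. The high glucose group (n = 4 libraries) was cultured for 24 h with 25 mM glucose. The normal glucose group (n = 4) had 5.5 mM glucose, with 19.5 mM mannitol added as the osmotic control. Naive BMDM were exposed for 24 h to PBS, to exosomes released by BMDM in normal glucose (NG-exo) or to exosomes released by BMDM in high glucose (HG-exo), with n = 4 libraries each. The exosomes of each NG-exo and HG-exo library came from a separate preparation. The labels do not say whether the recipient cells of these libraries came from separate animals. Nothing in the labels says that the glucose libraries came from separate animals, so their p-values measure only the spread between these libraries, which may be technical.

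The reads per library ran from 34016445 to 56310712 (median 43311931). The values are normalized counts, which are reads per gene divided by 1 size factor per library, and the 53 genes together held between 3.41% and 3.97% of them. All 10 macrophage markers of a fixed list were present in the table, with summed normalized counts between 651404 and 898093, against at most 378 for 5 listed neutrophil genes, 349 for 3 listed fibroblast genes and 456 for 2 listed endothelial genes. The 1 listed dendritic cell gene reached 157, and the 3 listed osteoclast markers (a list apart from the osteoclast genes described later) summed to between 4644 and 5402, with none of these 3 called in any comparison. No marker of B and T lymphocytes, mast cells or erythroid cells was in the table. Each gene was compared on log2 of the normalized count plus 1 with limma. The adjusted p-values given below are from that fit over all genes (Benjamini-Hochberg), unless another fit or test is named beside them. Called genes are those with an adjusted p-value under 0.05. For the exosome comparisons the log2 fold change also had to reach 0.15 in size, the limit used in the study. All 53 genes passed the filter on low values, a mean of at least 10.

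Per kb of exonic sequence, the most abundant of these genes was Psap, the precursor of the saposins that present lipids to hydrolases, with a mean of 121868 normalized counts per kb over all 20 libraries. The cysteine protease gene Ctss followed with 97959 per kb, the aspartic protease gene Ctsd with 52668 and the cysteine protease gene Ctsb with 52023. The glycoprotein Gpnmb stood at 26036 per kb and the membrane protein Lamp1 at 23614. The lowest levels per kb were those of Ctsk, the collagen-degrading cathepsin of osteoclasts, with 59.6, and of Acp5, the tartrate-resistant acid phosphatase, with 133. Among the V1 subunits the level ran from 219 per kb for Atp6v1h to 3868 for Atp6v1a, which encodes the catalytic subunit. Replicates lay close together, with a coefficient of variation within a group of 4 libraries between 0.6% and 38.5% over all genes and groups (median 3.21%). The highest variation was that of genes with few reads, Ctsk among them.

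**Figure D1:**
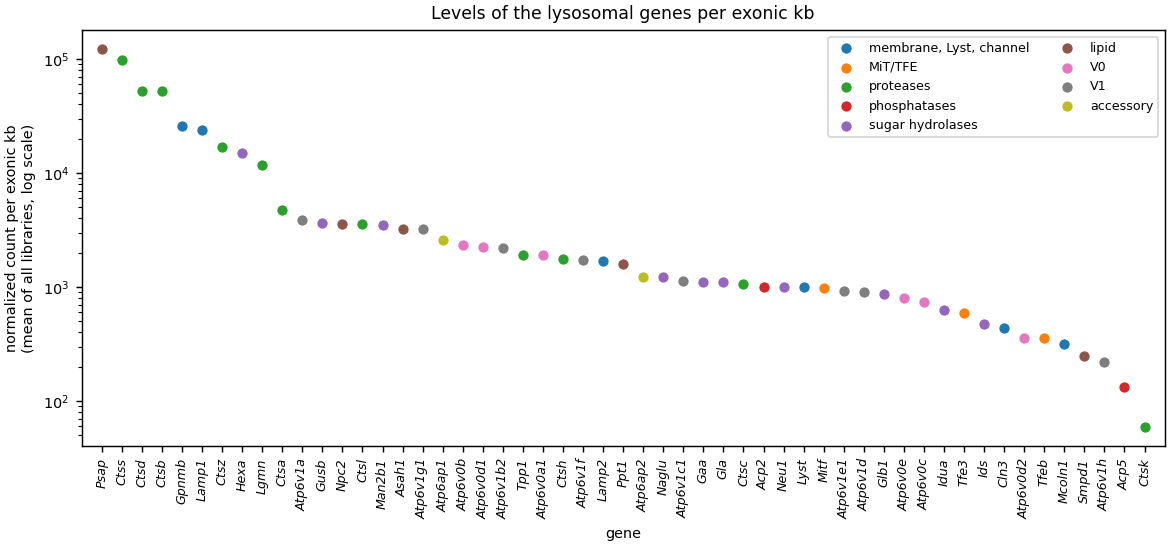
Mean normalized count per kb of exonic sequence of the 53 lysosomal genes over all 20 libraries, on a log axis, ordered from the highest to the lowest and coloured by role. Psap and the protease genes Ctss, Ctsd and Ctsb lie at 52023 per kb or above, and Acp5 and Ctsk lie at the bottom with 133 and 59.6.

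The MiT/TFE factors bind an E-box with flanking bases, the CLEAR element, whose core letters are TCACGTG on either strand. Promoters of 45 of the 53 genes could be matched in the RefSeq promoter table (GRCm38.p6). Atp6v0d2, Atp6v1b2, Atp6v1c1, Atp6v1g1, Atp6v1h, Asah1, Ctsb and Ctsh had no entry. In the 250 bases before the start site, 12 of these 45 genes held TCACGTG or its reverse complement CACGTGA, against 3.58% of the 27025 genes in that table, and 6 held the palindrome TCACGTGA, which contains both, against 0.907%. The bare E-box CACGTG, which is contained in all of these, was found in 13 of the 45 and in 6.86% of all genes. The genes with TCACGTG or CACGTGA are Lamp1, Atp6v0b, Atp6v1a, Ctsa, Ctsd, Cln3, Gaa, Gla, Glb1, Lgmn, Mcoln1 and Naglu. A match is a description of letters and not of a bound site. The start sites are those of the RefSeq table, and for some genes they differ from the GENCODE gene coordinates used elsewhere in this report. Of the stretches shown, those of Atp6v1a and Ctsd lie inside the GENCODE gene, and that of Naglu spans its GENCODE start. The stretches below are 30 bases each, 5′ to 3′ on the strand of the gene, with the matching letters in capitals. They are shown for Lamp1, in which the letters occur 4 times, and for the 5 of the 12 genes that were called in at least 1 of the comparisons that follow. Ctsd holds a further match, of CACGTGA alone, farther from its start site, which is not shown.

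Lamp1, chr8:13159096-13159125, plus strand, 62 to 39 bases before the start site: ataTCACGTGgtccagcgccCACGTGAtgc
Lamp1, chr8:13159127-13159156, plus strand, 28 to 10 bases before the start site: gactggCACGTGAccacaTCACGTGcggaa
Atp6v0b, chr4:117887340-117887369, minus strand, 37 to 13 bases before the start site: gggTCACGTGgggtcggcgcaTCACGTGcg
Atp6v1a, chr16:44139373-44139402, minus strand, 132 to 125 bases before the start site: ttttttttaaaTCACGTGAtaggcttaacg
Ctsd, chr7:142387908-142387937, minus strand, 99 to 92 bases before the start site: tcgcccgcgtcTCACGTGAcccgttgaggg
Gla, chrX:134601215-134601244, minus strand, 228 to 221 bases before the start site: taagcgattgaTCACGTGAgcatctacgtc
Gla, chrX:134601182-134601211, minus strand, 195 to 188 bases before the start site: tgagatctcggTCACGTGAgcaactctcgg
Naglu, chr11:101070008-101070037, plus strand, 74 to 68 bases before the start site: ccaaccttcaggTCACGTGgcccgaggtcg

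Calls were not limited to genes with these letters. Of the 12 genes with them 5 were called in at least 1 comparison, and of the 33 matched genes without them 15 were. The share of all genes called in at least 1 comparison was not computed. In high glucose 1 of the 12 was called higher and 1 lower, and 8 and 1 of the 33, against 7.74% and 5.53% of all genes. With NG-exo against PBS these were 2 and 0, and 3 and 1, against 0.888% and 2.11%. With HG-exo against PBS they were 2 and 0, and 3 and 3, against 1.76% and 3.08%. In the glucose comparison Atp6v0b was higher and Naglu was lower, so that genes with the letters moved in both directions. In the exosome comparisons Ctsd, Atp6v1a and Gla were higher, as described below.

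The comparison of high with normal glucose asks how macrophages in 25 mM glucose differ from those in 5.5 mM glucose with 19.5 mM mannitol. Glucose and mannitol change together here, and their effects cannot be told apart. Of the 53 genes 10 were called higher and 4 lower in high glucose, against 7.74% of all 14425 genes tested called higher and 5.53% called lower. The 4 libraries of high glucose lay above all 4 of normal glucose for 11 of the 53 genes and below them for 5, against 9.18% and 7.11% of all genes. The median log2 fold change was 0.04 over the 53 genes and -0.003 over all genes. Without regard to sign, the median size was 0.064 for the 53 genes and 0.124 for all genes. With quantile normalization, 6 of the 53 genes were called higher and 6 lower. In the proton pump, genes of the V0 sector were called in opposite directions. Among the proteases Ctss, Ctsz and Ctsk were higher while Ctsb was lower.

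**Figure D2:**
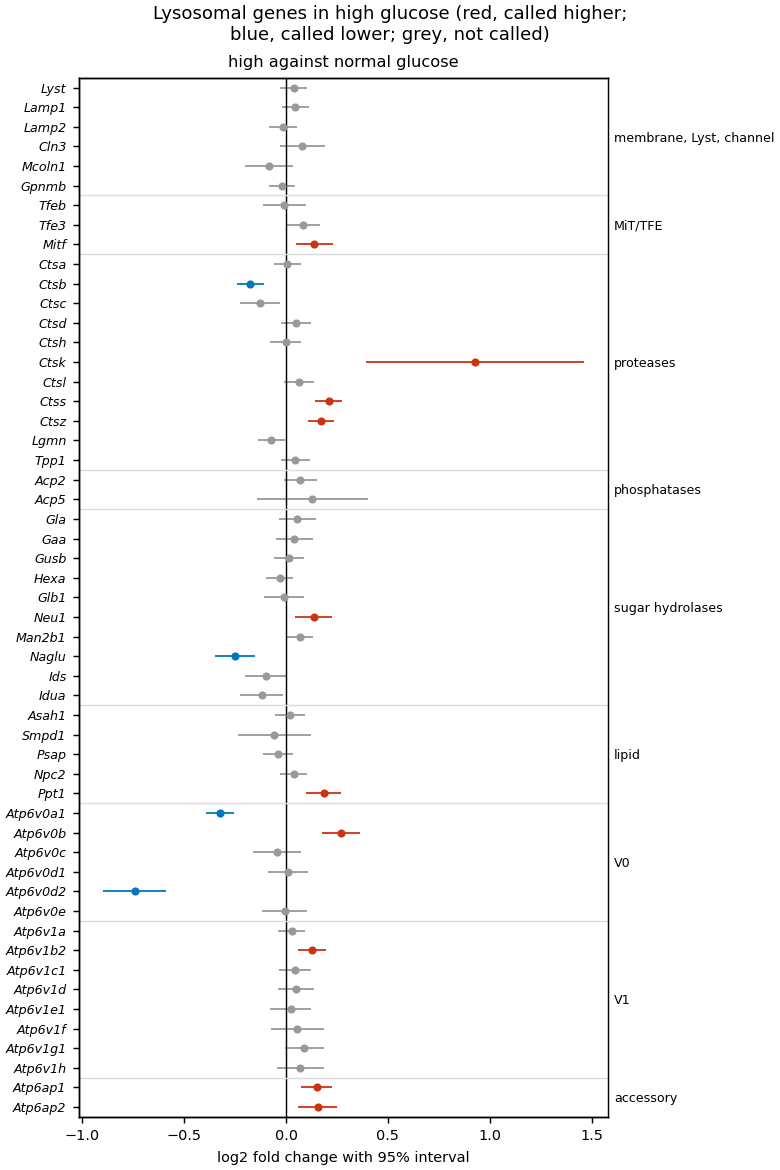
Log2 fold change of high against normal glucose for the 53 lysosomal genes, grouped by role, with bars for the 95% interval from the limma fit (n = 4 libraries a group). Of the 53 genes 10 are called higher (red) and 4 lower (blue), with Atp6v0d2 at -0.74 and Ctsk at 0.93 as the extremes.

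Atp6v0d2 encodes the d2 isoform of the V0 subunit that couples the sectors, an isoform found in macrophages and osteoclasts beside d1 (ENSMUSG00000028238, chr4:19876841-19922605, minus strand, GRCm38). Its normalized counts in normal glucose were 1111, 1283, 1163 and 1134, and in high glucose 762, 732, 677 and 632. Every high glucose library lay below every normal glucose library. The count fell by 0.74 on the log2 scale (SE 0.076, adjusted p = 3.25e-09). The ubiquitous isoform Atp6v0d1 had 3936, 3487, 4140 and 3778 in normal glucose against 3772, 4011, 3926 and 3712 in high glucose, and the groups overlapped (log2 fold change 0.01, 95% interval -0.09 to 0.11).

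Atp6v0a1, the a1 isoform of the large V0 subunit that forms part of the proton path (ENSMUSG00000019302, chr11:101009452-101063719, plus strand), moved in the same direction. Its counts were 14184, 14271, 14338 and 13736 in normal glucose against 11631, 11055, 11305 and 11202 in high glucose, again without overlap. The log2 fold change was -0.32 (SE 0.034, adjusted p = 7.94e-09). These were the lowest adjusted p-values of the 53 genes in this comparison. Both calls were kept in every alternative fit and with any library left out.

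Atp6v0b, a proteolipid of the V0 ring, went the other way. It had 4417, 3848, 4112 and 4244 normalized counts in normal glucose against 4739, 5078, 5231 and 4970 in high glucose (log2 fold change 0.27, SE 0.045, adjusted p = 4.33e-05). The V1 subunit that binds nucleotide beside the catalytic one, Atp6v1b2, rose from 11625, 11001, 11114 and 11300 to 11988, 12216, 12579 and 12405 (log2 fold change 0.13, adjusted p = 0.0107). The catalytic subunit gene Atp6v1a had 22007, 21247, 22191 and 22334 against 21986, 22113, 23044 and 22276 in high glucose, and the libraries overlapped (log2 fold change 0.03, adjusted p = 0.659). All 8 V1 subunits had a positive log2 fold change, with a median of 0.05, but only Atp6v1b2 passed the test.

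The accessory proteins of the pump, which take part in its assembly and its sorting, were both called higher. Atp6ap1 had 7250, 7210, 7316 and 7312 in normal glucose against 7779, 7810, 8232 and 8463 in high glucose (log2 fold change 0.15, adjusted p = 0.00577). Atp6ap2, also known as the prorenin receptor, had 2903, 2931, 3013 and 3227 against 3280, 3373, 3322 and 3455 (log2 fold change 0.15, adjusted p = 0.0223). High glucose was above normal glucose in every library for both genes. The remaining V0 members, Atp6v0c and Atp6v0e, differed by -0.04 and -0.01 on the log2 scale and were not called. Summed over the members chosen, the V0 counts were between 28214 and 29665 in normal glucose and between 25470 and 26574 in high glucose. The V1 sums were between 53345 and 54707 in normal glucose and between 54993 and 57429 in high glucose. The V0 sum leaves out Tcirg1 and Atp6v0a2, which encode other isoforms of the large V0 subunit and were not among the genes chosen. Tcirg1 had a mean of 16053 in normal and 17072 in high glucose, and Atp6v0a2 had 2213 and 2434. The lower V0 sum therefore describes the chosen genes only, and the whole sector was not tested.

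**Figure D3:**
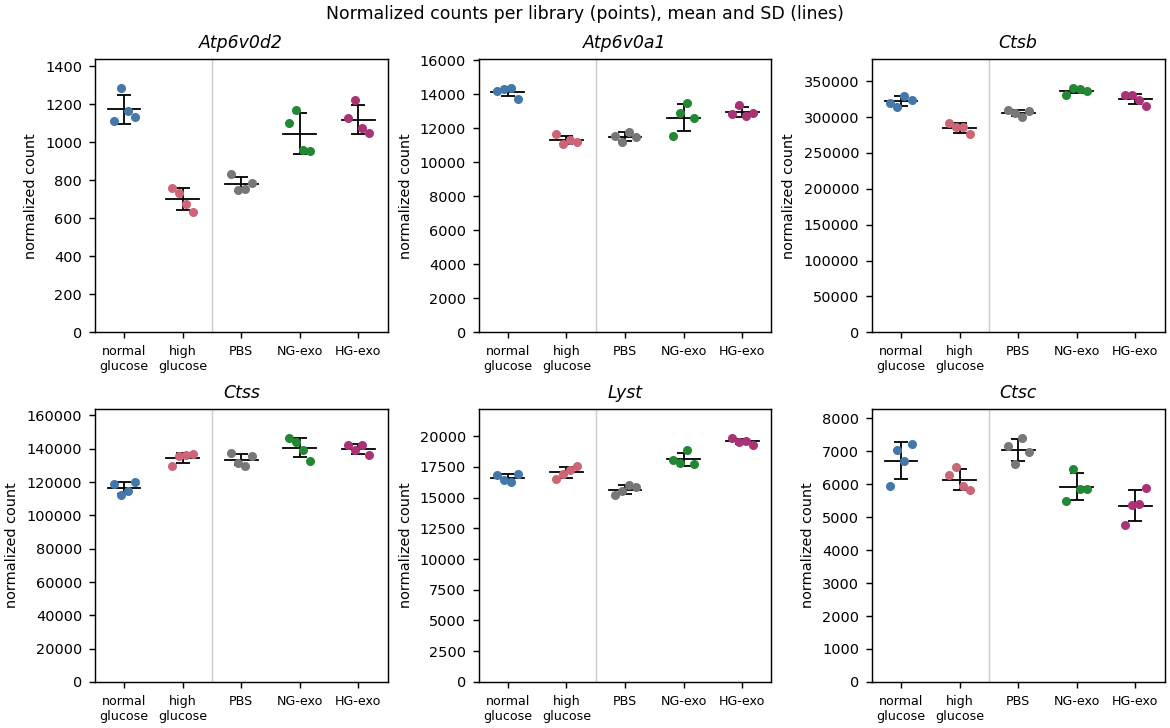
Normalized counts in each of the 20 libraries (points, axis from 0) for 6 of the genes, with the mean and SD of the 4 libraries of each group as lines. Atp6v0d2 and Atp6v0a1 are lower in high than in normal glucose and have higher means after exposure to exosomes than after PBS, while Lyst is highest after HG-exo and Ctsc lowest.

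Proteases moved in both directions. Ctss, an elastinolytic cysteine protease that also trims the invariant chain of MHC class II (ENSMUSG00000038642, chr3:95526786-95556403, plus strand), had 118784, 112059, 114654 and 120100 normalized counts in normal glucose against 129865, 135413, 136053 and 136826 in high glucose. The groups did not overlap, and the log2 fold change was 0.21 (SE 0.032, adjusted p = 9.85e-06). Ctsz, a carboxypeptidase, rose from 22558, 22126, 22219 and 21746 to 25086, 25701, 24788 and 24241 (log2 fold change 0.17, adjusted p = 0.000203). Ctsk had the largest fold of the 53 genes but few reads. It had 57.6, 56.5, 29.8 and 70.4 normalized counts in normal glucose against 124, 85.8, 83.5 and 104 in high glucose (log2 fold change 0.93, SE 0.263, adjusted p = 0.0143). The Ctsk call was lost when normal glucose library 5 or high glucose library 1 was left out, with an adjusted p of at most 0.0836.

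Ctsb, a cysteine protease with broad specificity (ENSMUSG00000021939, chr14:63122462-63145923, plus strand), was lower in every high glucose library. Its counts were 319690, 313420, 329917 and 324012 in normal glucose against 290966, 285946, 286125 and 275805 in high glucose (log2 fold change -0.18, SE 0.033, adjusted p = 0.000179). Ctsd had 104112, 99682, 114642 and 113278 against 111948, 109251, 114244 and 109813, and Ctsl had 20240, 20546, 21929 and 21776 against 21836, 21876, 23327 and 21256. For Ctsd and Ctsl the groups overlapped, and neither passed the test (adjusted p = 0.456 and 0.266). Ctsc, the dipeptidyl peptidase that activates granule proteases, had 5941, 7028, 6699 and 7205 against 6293, 6509, 5934 and 5831 (log2 fold change -0.13, adjusted p = 0.0737). Ctsa, Ctsh, Lgmn and Tpp1 had log2 fold changes between -0.07 and 0.05 and were not called. The summed protease counts ran from 639461 to 675992 in normal glucose and from 637770 to 655841 in high glucose.

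Of the hydrolases of sugars and lipids, Naglu was called lower and Ppt1 and Neu1 higher. Naglu, which cleaves heparan sulfate, had 3365, 3183, 3401 and 3061 normalized counts in normal glucose against 2837, 2746, 2657 and 2698 in high glucose, with no overlap (log2 fold change -0.25, SE 0.048, adjusted p = 0.000277). Ppt1, which removes palmitate from proteins, rose from 4886, 5492, 5452 and 5499 to 5802, 6146, 6102 and 6173 (log2 fold change 0.18, adjusted p = 0.00239). The sialidase gene Neu1 rose from a mean of 3361 ± 161 (SD, n = 4) to 3687 ± 84.3 (log2 fold change 0.13, adjusted p = 0.0443). The other 8 sugar hydrolases, Gla, Gaa, Gusb, Hexa, Glb1, Man2b1, Ids and Idua, and the lipid genes Asah1, Smpd1, Psap and Npc2 were not called. Psap had 320944, 292118, 335057 and 324906 in normal glucose against 318582, 306278, 307388 and 304468 in high glucose.

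Of the MiT/TFE factors, Mitf was called higher in high glucose. Its counts were 5814, 5706, 5668 and 5944 in normal glucose against 5804, 6201, 6600 and 6922 in high glucose (log2 fold change 0.14, SE 0.044, adjusted p = 0.0314), and 1 high glucose library lay within the range of the normal glucose group. Tfeb, which is itself held in the cytosol by mTORC1 when nutrients are plentiful, had 1992, 1931, 1936 and 2032 against 2016, 1910, 1909 and 2010 (log2 fold change -0.01, 95% interval -0.12 to 0.10). Tfe3 had 5382, 5082, 5358 and 5032 against 5423, 5363, 5627 and 5686 (log2 fold change 0.08, adjusted p = 0.191). The mRNA levels of the factors give no measure of where their proteins were in the cell.

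The membrane genes were not called. Lamp1 had 59441, 57529, 61663 and 62506 normalized counts in normal glucose against 61983, 63594, 62008 and 61136 in high glucose. Gpnmb, a glycoprotein of phagocytic macrophages and a known target of Mitf, had 156544, 154893, 154021 and 155085 against 148588, 154932, 153709 and 154915. Lyst, whose loss gives giant lysosomes in the beige mouse, had 16817, 16425, 16279 and 16921 against 16476, 16897, 17214 and 17587. These 3 genes overlapped between the groups, with adjusted p-values of 0.4, 0.744 and 0.534. The acid phosphatase gene Acp2 had 5327, 5351, 5275 and 5299 against 5534, 5689, 5699 and 5388, above normal glucose in every library but not called (adjusted p = 0.273). Acp5 had 231, 239, 230 and 226 against 229, 288, 273 and 229.

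The calls of Atp6ap2, Mitf and Neu1 were the least stable of the 14, since they were kept in only 3, 4 and 2 of the 8 fits that leave out 1 library. These 3 and Atp6v1b2 were also lost with quantile normalization. Macrophage markers moved with glucose as well. Of the 10 markers Csf1r, Lyz2, Cd14 and Adgre1 were called higher and Mrc1, Mertk and Cd68 lower, against 7.74% and 5.53% of all genes. The summed marker counts ran from 651404 to 726450 in normal glucose and from 828124 to 898093 in high glucose. What part the markers had in the changes of the lysosomal genes was not tested. In bulk RNA fewer cells of a type and less RNA per cell cannot be told apart.

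Other lysosomal genes, from lists outside the 53, were also called in both directions with glucose. Of all 14425 genes tested 7.74% were called higher and 5.53% lower, and no list was tested against these shares. Of 31 further hydrolases and cofactors 9 were called higher and 9 lower. The acid lipase gene Lipa (0.23) and Sumf1 (0.22), whose product activates the sulfatases, were higher, while the sulfatase genes Arsb (-0.42) and Galns (-0.32) were lower, each as a log2 fold change. Of 28 membrane and transport genes 1 was called higher, the metal transporter Slc11a1 (0.18), and 7 lower, among them the ion channel genes Tmem175 (-0.40) and Tpcn1 (-0.25) and the macrophage sialomucin Cd68 (-0.15), which is also in the marker list. Of 5 cathepsin inhibitors in the table the cystatins Cst3 (0.25) and Cstb (0.16) were higher and Serpinb6a (-0.13) lower. Of 32 sorting genes 1 was higher and 3 were lower, led by the adaptor subunit Ap1b1 (-0.22), the late endosomal GTPase Rab7 (0.16), Cln6 (-0.20) and Hps1 (-0.18). Of 14 further V-ATPase genes Dmxl1, an assembly factor of the pump, was lower (-0.29) and Ncoa7, which binds the pump, higher (0.14). Of 11 osteoclast genes Itgb3, the beta 3 integrin, was lower (-0.68) and Plekhm1 higher (0.12). Of 22 genes of mTORC1 and Rag signalling only Rragd, a Rag GTPase gene that TFEB itself induces, was called (-0.26), and of 7 relatives of Lyst with a BEACH domain Nbeal2 was higher (0.19) and Nbeal1 (-0.17) and Lrba (-0.19) lower.

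The exosome experiment asks what exosomes of macrophages do to naive macrophages, and whether it matters that the donor cells had been kept in high glucose. NG-exo and HG-exo were each compared with the same 4 PBS libraries, so these comparisons are not independent of each other, and their values are given side by side. With NG-exo 8 of the 53 genes were called higher and 1 lower, against 0.888% and 2.11% of the 14413 genes tested. With HG-exo 7 were called higher and 3 lower, against 1.76% and 3.08% of all genes. On adjusted p alone, with no limit on the fold (a setting chosen after seeing the data), the members called were 10 higher and 1 lower with NG-exo, against 1.02% and 2.32% of all genes. For HG-exo on that setting they were 10 higher and 4 lower, against 1.97% and 3.43%. The libraries of NG-exo lay above all PBS libraries for 16 of the 53 genes and below for 3, against 3.64% and 4.63% of all genes, and those of HG-exo above for 11 and below for 7, against 4.41% and 5.59%. The median log2 fold change of the 53 genes was 0.05 with NG-exo and 0.02 with HG-exo, and that of all genes 0.005 and 0.003. Without regard to sign, the median size was 0.070 with NG-exo and 0.079 with HG-exo for the 53 genes. For all genes it was larger, at 0.095 and 0.103. The 53 genes were not matched to the other genes for abundance, and whether abundance plays a part in the shares called was not tested.

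**Figure D4:**
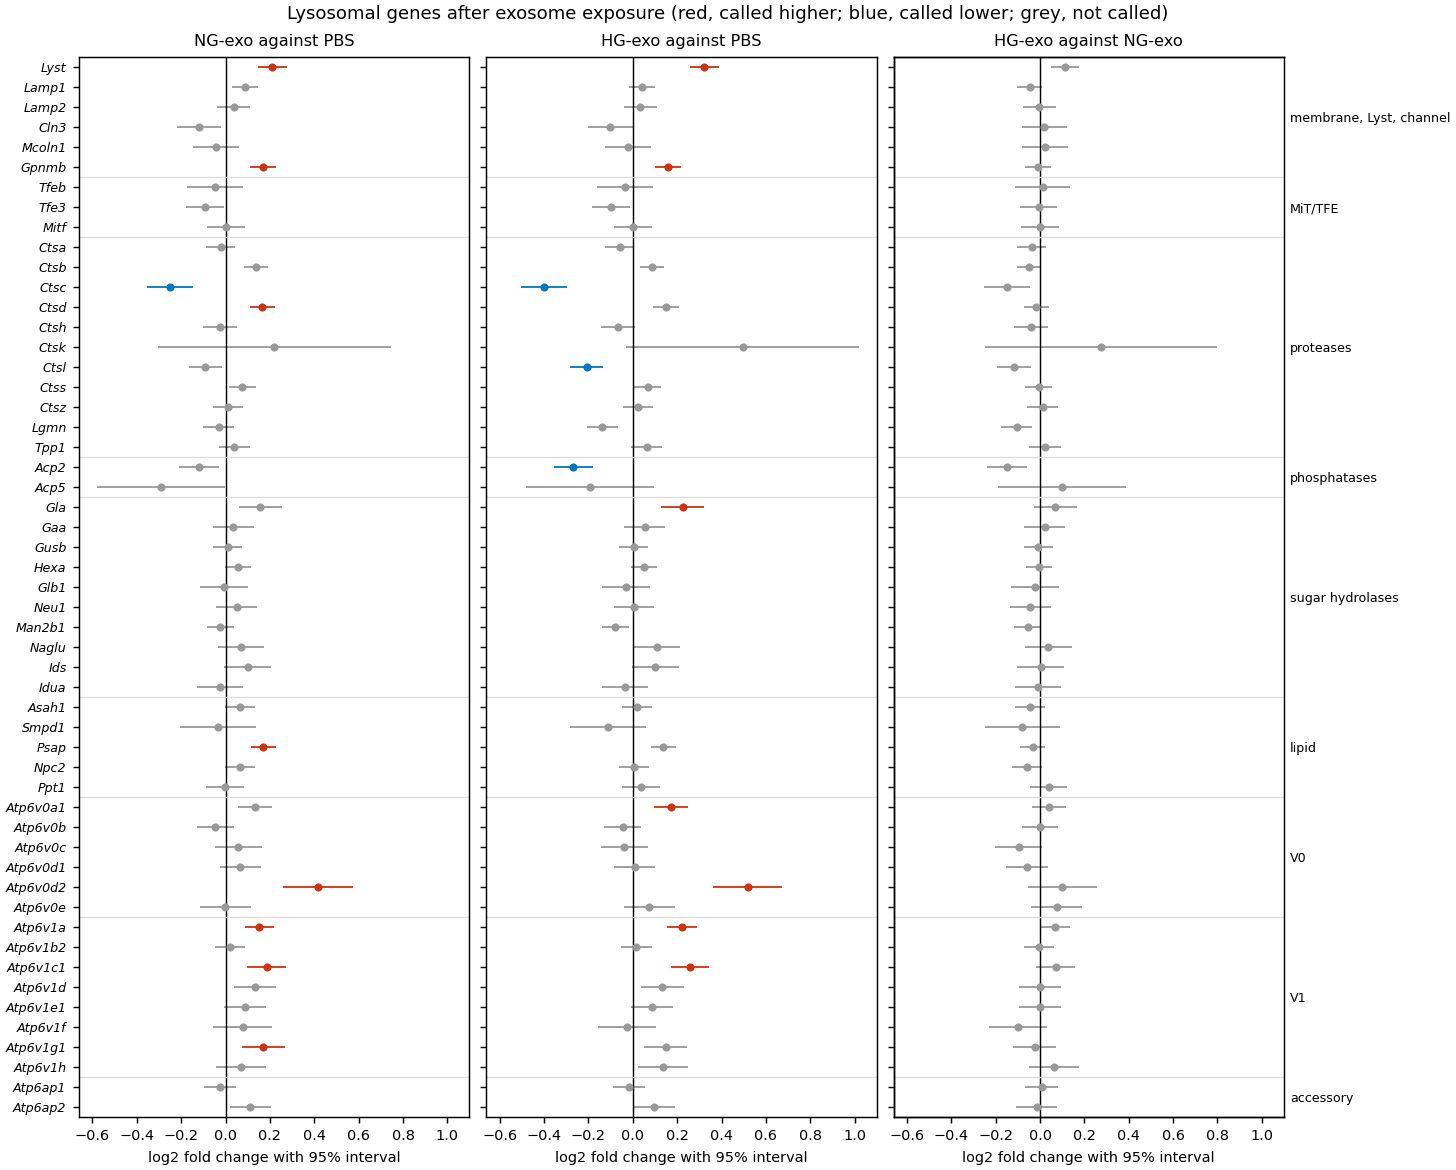
Log2 fold changes of the 53 lysosomal genes for NG-exo against PBS, HG-exo against PBS and HG-exo against NG-exo, with bars for the 95% interval from the limma fit (n = 4 libraries a group). Lyst, Gpnmb, Atp6v0d2, Atp6v1a and Atp6v1c1 are called higher and Ctsc lower with both kinds of exosome (the PBS libraries are shared), and no gene is called between HG-exo and NG-exo.

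Of the genes called against PBS, 4 of 9 with NG-exo and 4 of 10 with HG-exo encode subunits of the proton pump. The list of 53 genes itself holds 6 V0 and 8 V1 subunits, and the share among the calls was not tested against this make-up. Atp6v0d2 had 831, 751, 753 and 788 normalized counts after PBS, 1100, 1170, 957 and 956 after NG-exo and 1127, 1221, 1077 and 1051 after HG-exo. Every library exposed to exosomes lay above every PBS library, while the exosome groups overlapped each other. The log2 fold change against PBS was 0.42 with NG-exo (SE 0.077, adjusted p = 0.000616) and 0.52 with HG-exo (adjusted p = 1.44e-05). Its ubiquitous counterpart Atp6v0d1 had 4064, 4020, 3815 and 4182 after PBS, 4339, 4170, 4105 and 4220 after NG-exo and 4328, 4015, 3743 and 4098 after HG-exo, and was not called.

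Atp6v0a1 had 11560, 11211, 11797 and 11467 after PBS, 11523, 12912, 13472 and 12589 after NG-exo and 12857, 13360, 12719 and 12911 after HG-exo. All HG-exo libraries lay above the PBS group, and it was called with HG-exo (log2 fold change 0.17, SE 0.038, adjusted p = 0.00287). With NG-exo the log2 fold change of 0.13 was under the limit of 0.15 (adjusted p = 0.0449), and 1 NG-exo library lay within the PBS range. So Atp6v0d2 and Atp6v0a1, called lower in high glucose, were the V0 genes called higher after HG-exo, and Atp6v0b, called higher in high glucose, had log2 fold changes of -0.05 with either kind of exosome. Its counts were 5209, 5016, 5109 and 4857 after PBS, 4673, 4932, 5016 and 4948 after NG-exo and 4807, 5019, 4866 and 4859 after HG-exo.

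Of the 8 V1 subunits 3 were called higher with NG-exo and 2 with HG-exo, against 0.888% and 1.76% of all genes. Atp6v1a (ENSMUSG00000052459, chr16:44085402-44139705, minus strand) had 22693, 21589, 22417 and 21864 normalized counts after PBS, 24049, 24687, 25436 and 24280 after NG-exo and 26953, 26507, 25460 and 24449 after HG-exo, with no overlap of either group with PBS. The log2 fold change was 0.15 with NG-exo (SE 0.033, adjusted p = 0.00311) and 0.22 with HG-exo (adjusted p = 1.07e-05). Atp6v1c1, a stalk subunit that takes part in reversible assembly of the pump, had a mean of 5880 ± 89.6 (SD, n = 4) after PBS, 6693 ± 196 after NG-exo and 7043 ± 520 after HG-exo, with adjusted p-values of 0.00704 and 8.03e-05 against PBS. The stalk subunit Atp6v1g1 was called with NG-exo (3504 ± 80.4 after PBS, 3946 ± 138 after NG-exo, adjusted p = 0.0352) and had a log2 fold change of 0.15 with HG-exo that missed the test (adjusted p = 0.063). Atp6v1d, Atp6v1e1, Atp6v1f and Atp6v1h were not called, with log2 fold changes between -0.02 and 0.14. The nucleotide-binding subunit Atp6v1b2 had 11635, 11352, 11360 and 11500 after PBS, 11320, 11943, 11493 and 11794 after NG-exo and 11993, 11385, 11731 and 11277 after HG-exo, and the groups overlapped.

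The V1 call of Atp6v1g1 was kept in 5 and that of Atp6v1a with NG-exo in 9 of the 12 fits that leave out 1 library, while the calls of Atp6v0d2 and Atp6v1c1 were kept in all 12 for both kinds of exosome. The accessory proteins were not called. Atp6ap1 had 8365, 7926, 8162 and 7793 after PBS, 8020, 7930, 7880 and 7878 after NG-exo and 8157, 7863, 8089 and 7757 after HG-exo. Atp6ap2 had 3104, 3028, 3073 and 2918 after PBS, 3299, 3313, 3280 and 3195 after NG-exo and 3080, 3379, 3255 and 3242 after HG-exo, and each NG-exo library exceeded all PBS libraries (log2 fold change 0.11, adjusted p = 0.241). Outside the 53 genes, Wdr7, which works with Dmxl1 in assembling the pump, was called higher with both kinds of exosome. Its log2 fold change was 0.18 with NG-exo (adjusted p = 0.0142) and 0.24 with HG-exo (adjusted p = 0.000297). It was the only one of 14 further V-ATPase genes called, against 0.888% and 1.76% of all genes called higher.

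Lyst was the gene of the 53 with the lowest adjusted p-value in both comparisons with PBS. It encodes a large BEACH domain protein that controls the size of lysosomes (ENSMUSG00000019726, chr13:13590397-13778803, plus strand). Its counts were 15187, 15498, 16055 and 15832 after PBS, 18050, 17801, 18887 and 17722 after NG-exo and 19850, 19484, 19638 and 19305 after HG-exo. The 3 groups formed separate ranges, in the order PBS, NG-exo, HG-exo. The log2 fold change against PBS was 0.21 with NG-exo (SE 0.032, adjusted p = 3.13e-05) and 0.32 with HG-exo (adjusted p = 5.53e-09), and both calls were kept in every alternative. Of 7 relatives of Lyst in the table, Nbeal1 (0.30) and Lrba (0.25) were called higher with HG-exo and none with NG-exo. The shares of all genes called higher were 1.76% and 0.888%. Between the 2 kinds of exosome directly, no gene of that list passed the test.

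Among the other genes of the membrane and lumen, Gpnmb, Psap and Gla were called higher in at least 1 comparison with PBS, and Lamp1 was not. Gpnmb had 165868, 161916, 173753 and 164467 after PBS, 195476, 184380, 182994 and 186268 after NG-exo and 191412, 185813, 187128 and 179814 after HG-exo. Both exosome groups lay above PBS, with log2 fold changes of 0.17 (adjusted p = 0.000229) and 0.16 (adjusted p = 0.000268). Psap had 328580, 327010, 314949 and 324583 after PBS, 368780, 363686, 366696 and 358589 after NG-exo and 364231, 363623, 352004 and 345624 after HG-exo. It was called with NG-exo (log2 fold change 0.17, adjusted p = 8.50e-05), and with HG-exo the fold of 0.14 was under the limit (adjusted p = 0.00078). Lamp1 had 61584, 61873, 62396 and 64210 after PBS, 66647, 65430, 65948 and 67850 after NG-exo and 65890, 65231, 64711 and 61736 after HG-exo, and was not called (adjusted p = 0.0819 with NG-exo and 0.485 with HG-exo). The alpha-galactosidase gene Gla rose from a mean of 3368 ± 205 (SD, n = 4) after PBS to 3936 ± 164 after HG-exo (log2 fold change 0.23, adjusted p = 0.00168), and its mean of 3751 ± 99.3 after NG-exo missed the test (adjusted p = 0.062).

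The proteases again moved in both directions. Ctsd (ENSMUSG00000007891, chr7:142375911-142388038, minus strand) had 128505, 123787, 121255 and 121449 normalized counts after PBS, 134826, 139327, 141065 and 140021 after NG-exo and 140175, 141072, 135012 and 132971 after HG-exo, and no exosome library overlapped the PBS group. It was called with NG-exo (log2 fold change 0.17, SE 0.028, adjusted p = 0.000221), while with HG-exo the fold of 0.15 fell just under the limit (adjusted p = 0.000457). Ctsb had 309484, 305859, 300526 and 307930 after PBS, 331272, 339912, 338484 and 336504 after NG-exo and 330199, 330734, 324348 and 314674 after HG-exo, without overlap with PBS, and passed on the adjusted p-value (0.00103 and 0.0477) but not on the fold (0.14 and 0.09). The calls of Ctsd, Psap and Gpnmb, 3 of the most abundant genes, were lost with quantile normalization.

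Ctsc was lower with both kinds of exosome (ENSMUSG00000030560, chr7:88278085-88310888, plus strand). Its counts were 7153, 6618, 7404 and 6984 after PBS, 5488, 6473, 5864 and 5856 after NG-exo and 4754, 5374, 5387 and 5881 after HG-exo. Neither exosome group overlapped PBS, and the log2 fold change was -0.25 with NG-exo (SE 0.051, adjusted p = 0.00171) and -0.40 with HG-exo (adjusted p = 1.08e-06). Ctsl had 25470, 25770, 26596 and 25218 after PBS, 24076, 25969, 23134 and 23677 after NG-exo and 20483, 23393, 22286 and 23140 after HG-exo. It was called lower with HG-exo (log2 fold change -0.21, adjusted p = 0.000208), and with NG-exo the difference of -0.09 missed the test (adjusted p = 0.241). The asparaginyl endopeptidase gene Lgmn, from 28856 ± 743 (SD, n = 4) after PBS to 26236 ± 419 after HG-exo, passed on the adjusted p-value (0.0115) but not on the fold (-0.14).

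Ctss had 137302, 131744, 129526 and 135439 after PBS, 146485, 143939, 139525 and 132884 after NG-exo and 142328, 139182, 142199 and 136250 after HG-exo, and Ctsz had 25872, 24412, 23574 and 24476, then 25452, 24532, 24271 and 24777, then 25972, 25957, 23994 and 24011. Both overlapped between the groups, so that the proteases called higher in high glucose were not called after exosomes. Ctsk had 93.7, 78.7, 83.0 and 67.5 after PBS, 104, 124, 65.9 and 89.8 after NG-exo and 164, 153, 102 and 64.2 after HG-exo, with intervals of the log2 fold change against PBS from -0.30 to 0.74 and from -0.03 to 1.02. Neither comparison was called, and the intervals leave room for changes of up to 0.74 and 1.02.

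Acp2, the lysosomal acid phosphatase (ENSMUSG00000002103, chr2:91202885-91214098, plus strand), was lowest after HG-exo. It had 5411, 5403, 5810 and 5343 normalized counts after PBS, 5285, 4996, 5047 and 4895 after NG-exo and 4261, 4464, 4772 and 4755 after HG-exo, so that the 3 groups formed separate ranges. The log2 fold change against PBS was -0.12 with NG-exo (adjusted p = 0.165) and -0.27 with HG-exo (SE 0.044, adjusted p = 5.81e-05). Acp5 had 380, 288, 336 and 283 after PBS, 220, 312, 260 and 259 after NG-exo and 329, 283, 295 and 222 after HG-exo, and was not called.

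The remaining named genes did not pass the test after exosomes. Naglu had 3117, 3302, 3212 and 3336 after PBS, 3390, 3156, 3412 and 3668 after NG-exo and 3670, 3595, 3587 and 3145 after HG-exo. Ppt1 had 5793, 6229, 5674 and 6135 after PBS, 6230, 6054, 5616 and 5887 after NG-exo and 6183, 5952, 6234 and 6070 after HG-exo. The groups overlapped for both genes.

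None of the MiT/TFE factors was called after exosomes. Tfeb had 2020, 2220, 2097 and 1971 after PBS, 1908, 1962, 2037 and 2133 after NG-exo and 2320, 1957, 1852 and 1999 after HG-exo. Tfe3 had 6014, 5760, 6030 and 5719, then 5656, 5378, 5349 and 5685, then 5453, 5202, 5513 and 5826, with a log2 fold change of -0.09 with NG-exo and -0.10 with HG-exo (adjusted p = 0.303 and 0.202). Mitf had 5966, 6277, 5961 and 6139, then 6250, 6358, 5859 and 5935, then 6344, 5992, 5684 and 6379. Of all genes tested 0.888% were called higher with NG-exo and 1.76% with HG-exo, both against the same PBS libraries. In the signalling that holds TFEB and TFE3 in the cytosol, 3 of 22 genes were called, all higher with both kinds of exosome. They are Rragd, which had a log2 fold change of 0.39 with NG-exo (adjusted p = 0.00256) and 0.46 with HG-exo (adjusted p = 0.000169), and Fnip1 and Fnip2, partners of folliculin in the activation of RagC and RagD. Fnip1 changed by 0.17 and 0.22, and Fnip2 by 0.21 and 0.28. Rragd had 626, 633, 585 and 578 normalized counts after PBS, 794, 717, 797 and 862 after NG-exo and 864, 839, 845 and 781 after HG-exo, with no overlap with PBS, and 675, 681, 650 and 720 in normal glucose against 586, 574, 538 and 575 in high glucose.

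Markers of the macrophages moved with the exosomes too. Of the 10 markers Fcgr1, Itgam, Csf1r, Cd14 and Adgre1 were called lower with both kinds of exosome and none higher. Of all genes 0.888% were called higher and 2.11% lower with NG-exo, and 1.76% and 3.08% with HG-exo. The summed marker counts ran from 816258 to 861726 after PBS, from 738507 to 794497 after NG-exo and from 755323 to 778999 after HG-exo. The summed counts of the 53 lysosomal genes ran from 1514757 to 1549305 after PBS, from 1640932 to 1664979 after NG-exo and from 1583276 to 1652825 after HG-exo. The part of the markers in the changes of the lysosomal genes was not tested. Of the 31 further hydrolases and 28 membrane and transport genes none was called in any exosome comparison. Of 32 sorting genes Dtnbp1 (0.28) and Igf2r (0.17) were higher and Ap1b1 (-0.17) was lower with HG-exo, against 1.76% and 3.08% of all genes. Igf2r is the receptor that carries hydrolases tagged with mannose 6-phosphate to the lysosome. No cathepsin inhibitor and no osteoclast gene was called.

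When HG-exo was set against PBS and NG-exo combined, as the study did, Lyst was called higher (log2 fold change 0.22, SE 0.046, adjusted p = 0.0392) and Acp2 lower (log2 fold change -0.21, SE 0.044, adjusted p = 0.0392), against 0.0694% of all genes called higher and 0.132% called lower. For these 2 genes the 4 HG-exo libraries also lay outside the range of all 8 controls, which held for 0.576% of all genes above and 0.597% below. Ctsc (log2 fold change -0.27, adjusted p = 0.0612) and Ctsl (-0.16, adjusted p = 0.0638) were next in order. With the date as a block the adjusted p-value was 0.0757 for Lyst and 0.0622 for Acp2, so that neither was called. The Lyst call was kept in 4 and the Acp2 call in 5 of the 12 fits that leave out 1 library.

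Between HG-exo and NG-exo directly, no lysosomal gene was called with limma, edgeR or DESeq2, against 0% of all genes called higher and 0.0139% called lower with limma. At an unadjusted p under 0.05 there were 6 of the 53, Lyst, Acp2, Ctsc, Ctsl, Lgmn and Atp6v1a, against 6.54% of all genes. The HG-exo libraries lay above all NG-exo libraries for 1 gene, Lyst, and below them for 2, Acp2 and Ctsb, against 1.86% and 2.01% of all genes. The log2 fold change was 0.11 for Lyst (95% interval 0.05 to 0.18, adjusted p = 0.378), -0.15 for Acp2 (-0.24 to -0.06, adjusted p = 0.409) and 0.10 for Atp6v0d2 (-0.06 to 0.26, adjusted p = 0.92). These intervals leave room for differences of up to 0.26 on the log2 scale in all of the 53 genes other than Acp5 and Ctsk, whose intervals reach 0.39 and 0.80.

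The V-ATPase holds 1 d subunit, d1 or d2, and 1 a subunit, a1 to a4, so the share of each isoform in the counts per kb describes the make-up of the pump at the level of RNA. Atp6v0d2 made up 15.7%, 19.5%, 15.6% and 16.5% of the d subunit counts in normal glucose against 11.8%, 10.8%, 10.2% and 10.1% in high glucose, a difference of -6.15 percentage points. The share was 11.4% ± 0.426 (SD, n = 4) after PBS, 14.1% ± 1.18 after NG-exo and 15.5% ± 1.07 after HG-exo. In an exact permutation test of the libraries, two-sided, the p-value was 0.0286 for high against normal glucose, for NG-exo against PBS and for HG-exo against PBS, which is the smallest that 4 against 4 libraries can give (adjusted p = 0.0476 over 10 tests). HG-exo exceeded the combined controls by 2.74 points (exact permutation p = 0.0162, adjusted p = 0.0476) and NG-exo by 1.38 points (exact permutation p = 0.114, adjusted p = 0.143).

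Tcirg1, which encodes the a3 isoform of lysosomes and of the osteoclast membrane, was the most abundant a subunit gene per kb in all groups. It made up 60.1%, 57.1%, 58.7% and 57.6% of the a subunit counts per kb in normal glucose against 64.4%, 64.5%, 63.0% and 64.2% in high glucose (difference 5.64 points, exact permutation p = 0.0286, adjusted p = 0.0476). Its own level did not pass the test (log2 fold change 0.09, adjusted p = 0.122), while that of Atp6v0a1, the next in abundance, was lower. The share was 65.3% ± 0.635 (SD, n = 4) after PBS, 63.3% ± 1.94 after NG-exo and 62.5% ± 1.21 after HG-exo. HG-exo was below PBS by 2.74 points without overlap (difference -2.74, exact permutation p = 0.0286, adjusted p = 0.0476), whereas NG-exo against PBS (exact permutation p = 0.143, adjusted p = 0.159), HG-exo against the combined controls (p = 0.097 by exact permutation, adjusted p = 0.139) and HG-exo against NG-exo (exact permutation p = 0.514) did not pass. The a4 isoform gene was not in the table and entered the share as 0.

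**Figure D5:**
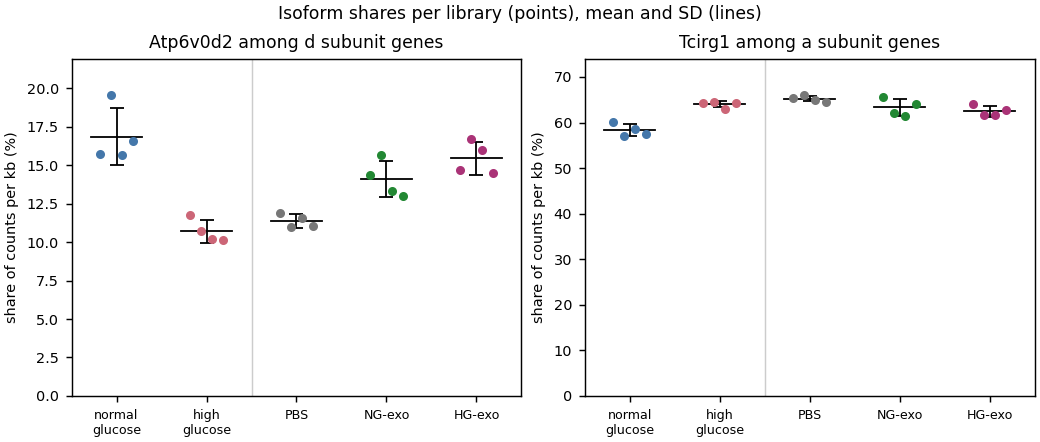
Share of Atp6v0d2 in the counts per kb of the d subunit genes, and of Tcirg1 in those of the a subunit genes, in each of the 20 libraries (points, axis from 0, in percent), with the mean and SD of each group as lines. The Atp6v0d2 share lies between 15.6% and 19.5% in normal glucose and between 10.1% and 11.8% in high glucose, and every library exposed to exosomes lies above the highest PBS library (11.9%).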

How the data were processed

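RNA of 20 mouse BMDM libraries was measured by stranded total RNA sequencing with ribosomal cDNA depleted. The authors trimmed the reads with cutadapt, used STAR to map them to GRCm38 and featureCounts to count reads by gene, and the deposited signal is the count divided by a DESeq2 median-ratio size factor. Whole reads were recovered from the step between values in all 20 columns (100% of values within 0.01 of a whole number), and used for totals and for the edgeR 4.0.16 and DESeq2 1.42.0 alternatives. Size factors ran from 0.79 to 1.25. Totals ran from 34016445 to 56310712 reads. A single annotated miRNA gene, Gm23935, took 8.78% to 15.2% of them. No libraries of a group were copies (chi-square per degree of freedom 5.19 to 41.9 over 30 pairs). Names, coordinates and exonic lengths are from GENCODE M21, and the study does not name its annotation. Since the length includes all annotated exons, levels per kb depend on it. Tmppe overlaps Glb1, Hmgb1-ps5 overlaps Ctss and a miRNA gene overlaps Atp6v1e1 on the same strand, so reads of these genes could be split.

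Log2 of the normalized count plus 1 was tested with limma 3.58.1 in R 4.3.3 (lmFit, eBayes with trend), two-sided, for genes whose mean reached 10, with the 8 glucose and 12 exosome libraries fitted separately. The comparisons, thresholds and tests were those described in the report. The fits were tested on simulated data. Library numbers of the glucose groups coincide for only 2 libraries. The exosome libraries share 4 dates in the labels, which pair them by a shared day. The mean correlation of deviations from the group mean was 0.012 for 12 pairs of the same date and -0.00397 for 36 pairs of different dates. The 53 genes and all lists were chosen with earlier results of these data known. Values in every library are given for genes called in the glucose comparison, at most the 8 lowest p-values in each direction, for the 3 lowest p-values in each of 3 exosome comparisons (HG-exo against the combined controls and against NG-exo, and NG-exo against PBS), and for 14 genes fixed by name. In each list outside the 53, the genes named were at most the 4 called with the lowest p in glucose and any called after exosomes. Intervals are at the 95% level. Alternatives changed the libraries, block, tool, variance trend, normalization, filter or pseudocount, 1 at a time. Python 3.11.15 was used for tables (numpy 2.4.6, pandas 2.3.3), permutation tests (scipy 1.17.1) and plots (matplotlib 3.10.9).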

Additional observations from a re-analysis of the deposited data

Results flagged for a closer look

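In 140 sets of 4 libraries, 28 measures (26 genes and 2 shares) in 5 groups, the highest or lowest library was examined for a gap to the nearest of the others above Dixon's 95% critical value, as a share of the range. This held for 3 sets, and chance flags about 1 in 20. Acp2 in PBS library 3 had 5810 normalized counts against 5343 to 5412 in the others (gap 0.854 of the range). Naglu in HG-exo library 4 had 3145 against 3587 to 3670 (gap 0.842). Ppt1 in normal glucose library 1 had 4886 against 5452 to 5499 (gap 0.923). Without that library the Ppt1 call was kept, as it was in all 8 fits that leave out 1 library, and so was the Acp2 call for HG-exo against PBS in all 12.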

How the results depend on the processing

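Without the variance trend the calls dropped to 5 in the glucose comparison, 2 for NG-exo and 6 for HG-exo against PBS, and 0 for HG-exo against the combined controls. With the library number as a block 3 calls were left in the glucose comparison, of Atp6v0d2, Atp6v0a1 and Ppt1. Only 2 numbers are shared by the glucose groups, and whether a number marks a shared culture or batch is not given in the labels and was not tested. The date as replicate block left 0 calls against the combined controls, changed no count of calls by more than 1.5 times otherwise, and all 20 libraries in 1 fit gave 6. Leaving out each library in turn gave 0 to 6 calls against the combined controls. It gave 0 without any 1 of PBS 1, 2, 3 and 4 and HG-exo 1, 2 and 3, 4 without NG-exo 1 and 6 without NG-exo 3. For the shares, leaving out a library gave -6.56 to -5.25 points for Atp6v0d2 in glucose, 2.19 to 3.07 for NG-exo and 3.67 to 4.42 for HG-exo against PBS and 2.31 to 3.15 against the combined controls. The Tcirg1 share gave 5.22 to 6.21 in glucose and -3.28 to -2.42 for HG-exo against PBS. Paired by date the differences were 2.74 (combined controls), 2.71 and 4.09 points for Atp6v0d2 and -2.74 for Tcirg1, each with an exact sign-flip p of 0.125. None of these passed. Within 4 against 4 libraries none can, since 3 against 4 allow no p under 0.0571 and 4 pairs none under 0.125. The fits against the combined controls could have passed, and gave an adjusted p between 0.0505 and 0.0952 for Atp6v0d2 (exact permutation). No called value turned its direction. Over all genes given in every library or called, 2862 values under alternatives gave 88 lost calls, 23 gained calls and 97 changes of sign among 2125 values called in neither fit. The cause of these changes was not tested. Genes with few reads, Ctsk above all, limit what can be detected.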

Other observations

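Among the 53 genes, 2 pairs lie within 50 kb of each other on the same strand, with no other gene of the table between them. Ctsk ends 17.4 kb before Ctss on chromosome 3, and both were called higher in high glucose (log2 fold change 0.93 and 0.21). Atp6v0a1 ends 6.29 kb before Naglu on chromosome 11, and both were called lower in high glucose (-0.32 and -0.25). After HG-exo, against PBS, the log2 fold change was 0.17 for Atp6v0a1 and 0.11 for Naglu. These pairs were noticed after the values were seen and were not tested.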
